A study of Mus musculus with 5 samples.

Results

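The genes described here encode the subunits, regulators and assembly factors of the constitutive proteasome, and they were taken by symbol: Psm, a letter from a to g and a number, without Psmb8, Psmb9 and Psmb10. Of 18820 genes measured in the series, 44 fit this rule, namely 15 of the core particle (Psma and Psmb), 20 of the regulatory particle (Psmc and Psmd, with its assembly chaperones) and 9 others (Psme, Psmf and Psmg). Their RNA was measured in livers of adult C57Bl/6 mice on 5 arrays, 3 from mice given a rat IgG control and 2 from mice given the anti-CSF1R antibody M279. Every injection held 300 µg and went into the peritoneal cavity, 3 times a week over 6 weeks. CSF1R is the receptor that macrophages and monocytes need for CSF1 and IL-34. Whole liver was used, so fewer cells of a type and less RNA per cell cannot be told apart. The labels do not say that each sample came from its own animal, so a p-value reflects only how far these samples spread, which may be technical.

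The proteasome is the main protease of the cytosol and nucleus and degrades proteins that carry chains of ubiquitin. Its core particle is a barrel of stacked rings, in which alpha subunits guard the entry and beta subunits line the chamber that holds the proteolytic sites. The regulatory particle caps the barrel: its base contains a ring of ATPases that unfold substrates, and its lid removes the ubiquitin chain. In the liver, as elsewhere, most subunit genes are expressed in all cells and can be raised together by the transcription factor NFE2L1 when proteasomes are impaired.

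Promoter letters are shown because the factors known to act on subunit genes bind there. RefSeq promoters (build GRCm38.p6) were found for 36 of the 44 genes, 39 promoters in all, and the 250 bases before the start were searched on both strands. TGACNNNGC, the core of the antioxidant response element that NFE2L1 and NFE2L2 bind, occurred in 2 of 12 core particle promoters (16.7%), in 3 of 18 regulatory particle promoters (16.7%) and in 10.2% of all 32851 promoters. The ETS site CCGGAAG occurred in 1 of 12 core particle promoters (8.33%), in 9 of 18 regulatory particle promoters (50%) and in 6.91% of all promoters. CCAAT was found in 7 of 12 (58.3%) and 5 of 18 (27.8%), against 33.8% of all promoters. Each motif was counted alone, matches of different motifs may overlap, and a match describes letters only. The 4 promoters of particle subunits that hold TGACNNNGC are printed 5′ to 3′ along the gene's strand, with matches to TGACNNNGC and CCGGAAG, or their complements, in capitals. The windows are chr14:54617996-54618245 on the minus strand for Psmb5, chr11:70525107-70525356 on the plus strand for Psmb6, chr14:45329574-45329823 on the plus strand for Psmc6 and chr11:107479278-107479527 on the plus strand for Psmd12.
Psmb5: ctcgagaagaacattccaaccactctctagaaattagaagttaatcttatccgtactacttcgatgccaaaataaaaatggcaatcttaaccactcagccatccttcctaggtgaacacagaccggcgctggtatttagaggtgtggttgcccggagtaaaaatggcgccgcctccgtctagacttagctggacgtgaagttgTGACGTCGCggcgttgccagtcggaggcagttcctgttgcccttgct
Psmb6: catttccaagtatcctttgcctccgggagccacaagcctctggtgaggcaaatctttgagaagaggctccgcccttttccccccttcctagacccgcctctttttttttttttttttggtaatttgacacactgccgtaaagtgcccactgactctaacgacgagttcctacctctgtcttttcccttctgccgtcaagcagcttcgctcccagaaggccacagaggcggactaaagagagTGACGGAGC
Psmc6: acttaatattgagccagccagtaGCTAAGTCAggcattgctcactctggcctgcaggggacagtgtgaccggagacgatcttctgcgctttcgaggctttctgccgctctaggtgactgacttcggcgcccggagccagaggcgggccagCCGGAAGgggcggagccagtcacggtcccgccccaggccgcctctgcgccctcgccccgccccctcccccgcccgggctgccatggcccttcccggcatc
Psmd12: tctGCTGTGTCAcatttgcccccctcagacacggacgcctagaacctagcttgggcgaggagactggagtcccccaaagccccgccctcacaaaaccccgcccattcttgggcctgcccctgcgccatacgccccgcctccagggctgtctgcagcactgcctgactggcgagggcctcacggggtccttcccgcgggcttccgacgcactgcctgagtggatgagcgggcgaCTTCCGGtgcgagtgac
In the core particle the match lies 39 to 47 bases before the start in Psmb5 and 1 to 9 in Psmb6. In the regulatory particle the match lies 219 to 227 bases before the start in Psmc6, 239 to 247 in Psmd12 and 23 to 31 in Psmd9, a chaperone of base assembly that is not printed. The ETS match lies 94 to 100 bases before the start in Psmc6 and 11 to 17 in Psmd12. On the arrays, the differences of Psmb5 and Psmb6 were 0.14 and 0.24, and those of Psmc6, Psmd12 and Psmd9 were 0.05, -0.13 and 0.29 (log2, anti-CSF1R minus control).

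Values below are log2 of the deposited intensity, and a difference is the anti-CSF1R mean minus the control mean. Its SE and p come from limma, a linear model that steadies each probe set's variance with that of all others, and adjusted p-values cover all 35556 probe sets. Groups are called apart where both anti-CSF1R arrays lie above, or both below, all 3 controls. Level means the average of a gene over 5 arrays, and the brightest 4705 genes serve as a comparison at like level. Median intensity was 32.5 to 33.9 on all 5 arrays, pairs of arrays correlated at 0.983 to 0.992 over probe sets, and the number of arrays limits the precision. Anti-CSF1R replicate 2 correlated least with the others. All 10 hepatocyte markers lay among these brightest genes with a median difference of -0.019, so the tissue matched its label. Of 12 macrophage and Kupffer cell markers, 10 were lower, with a summed intensity of 4710 to 5430 in controls, 3670 on anti-CSF1R replicate 1 and 4890 on replicate 2, and none was at 0. On replicate 2, 6 of the 12 lay above the control mean. Groups were apart and lower for 4 of the 12, Adgre1, Csf1r, C1qb and Mpeg1, where 19.5% of all genes and 26.8% of the brightest 4705 were. Csf1r, the antibody's target, had 8.49, 8.68 and 8.61 in controls and 7.93 and 8.12 in anti-CSF1R liver (-0.56 ± 0.12, SE, limma adjusted p = 0.191). Of the 12, 1 was apart and higher. That gene, the macrophage receptor Marco, had the largest difference of the list, at 5.14, 4.89 and 4.67 against 6.11 and 6.36 (1.34 ± 0.17, SE, limma adjusted p = 0.175). Differences varied with level: their median was 0.043 over all genes but -0.056 in the brightest 4705, where 37 of the 44 genes lay. By falling level it was -0.15 in the next 4705, then 0.116, and 0.184 in the dimmest 4705.

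Core particle genes all had slightly higher values in anti-CSF1R liver, and regulatory particle genes lay on both sides of 0. All 15 core particle genes were higher by some amount, from 0.07 to 0.31 on the log2 scale with a median of 0.144, where 56.3% of all genes and 41.2% of the brightest 4705 were higher. In the regulatory particle 11 genes were higher and 9 lower, from -0.35 to 0.29 with a median of 0.025. None of the 44 passed an adjusted p of 0.05 in limma (0 higher and 0 lower, as for 0% of 35556 probe sets in each direction), and the smallest adjusted p was 0.298, for Psmd9. At an unadjusted p under 0.05 the count was also 0 of 44, against 18.3% of all genes and 10.4% of the brightest 4705. The difference between the particles has no test here, since the genes were chosen with earlier results known.

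**Figure D1:**
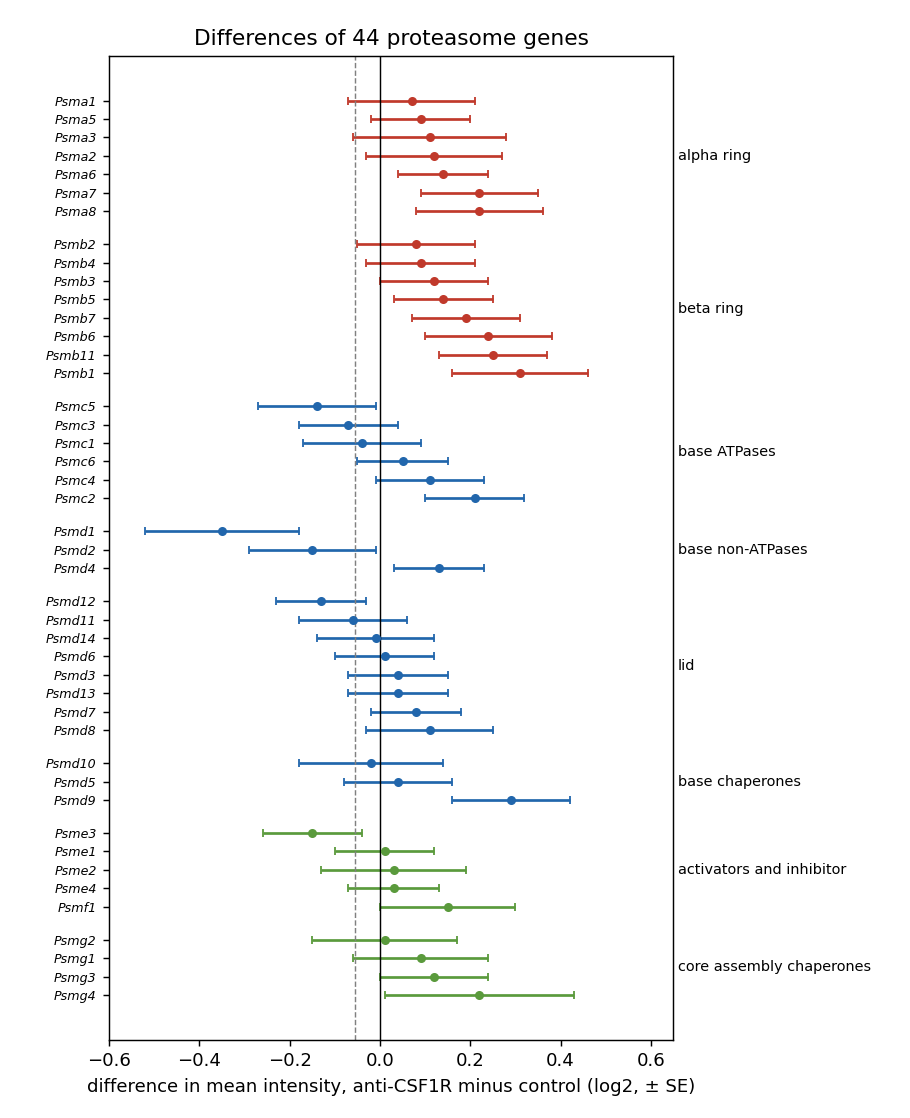
Difference in mean log2 intensity, anti-CSF1R minus control, for each of the 44 genes (points; bars, SE of the limma fit; 3 control and 2 anti-CSF1R arrays), in red for the core particle, blue for the regulatory particle and green for the others. The dashed line is the median of -0.056 over the brightest 4705 genes; all 15 core particle points lie right of 0, and the regulatory particle runs from -0.35 for Psmd1 to 0.29 for Psmd9.

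Size and spread can be read against each other. The largest difference was -0.35 for Psmd1, a fold of 0.786, and every 95% interval of the 44 genes included 0. Groups did not overlap for 5 of 15 core particle genes, all higher in anti-CSF1R liver, where 25.1% of all genes and 11.7% of the brightest 4705 were apart in that direction. In the regulatory particle 5 of 20 were apart and higher and 2 apart and lower, the latter against 19.5% of all genes and 26.8% of the brightest 4705. Among the 9 other genes the groups overlapped in every case. With 2 against 3 arrays an exact permutation test cannot go below p = 0.1, so none was made.

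The core particle's differences came mostly from 1 array. Against the control mean, the median core particle gene stood at 0.068 on anti-CSF1R replicate 1 and at 0.244 on replicate 2, with the controls between -0.013 and 0.003. Each control is part of that mean, here and below, so control deviations are drawn towards 0 by construction and understate how far a new control would lie. On replicate 1, 11 of the 15 lay above the control mean, and on replicate 2 all 15 did. Without replicate 2 the median difference was therefore 0.068, and without replicate 1 it was 0.244. The regulatory particle stood at 0.008 and 0.066 on the same arrays, with the controls between -0.04 and 0.03, and these are also its medians without replicate 2 and without replicate 1.

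**Figure D2:**
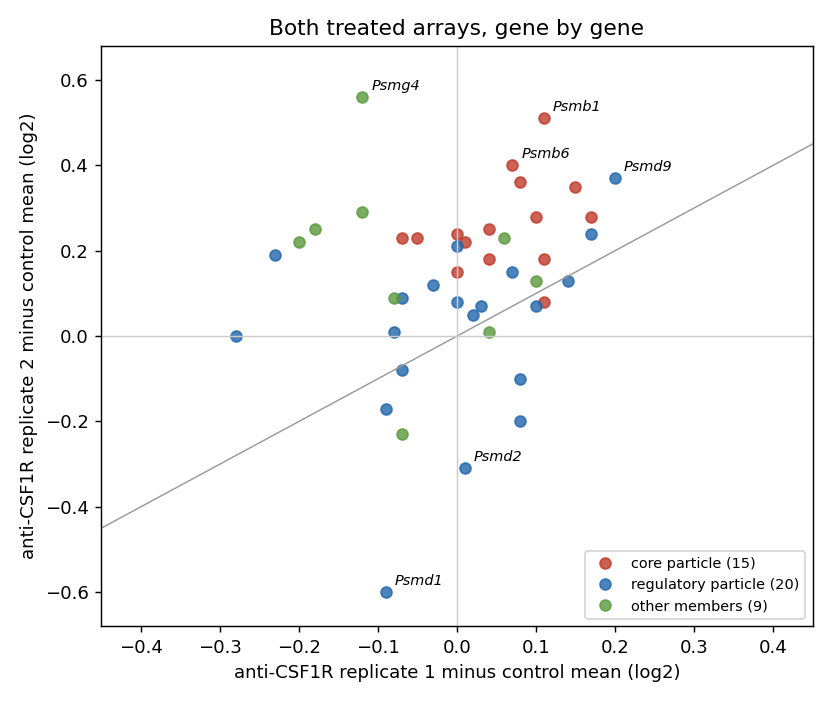
Each of the 44 genes by its log2 intensity minus the control mean on anti-CSF1R replicate 1 (horizontal) and replicate 2 (vertical), coloured by particle; the line marks equal values. In the core particle 14 of 15 genes lie above the line, with Psmb1 at 0.11 and 0.51, while Psmd1 lies at -0.09 and -0.60.

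Other genes stood apart on that array too. Ribosomal protein genes, a list added after values were seen, stood 0.58 above the control mean on replicate 2 in the median of 62 genes and 0.037 on replicate 1. Over 18790 genes with a RefSeq gene span, the Spearman correlation between span and the deviation from the control mean was -0.33 on replicate 2, -0.18 on replicate 1 and between -0.13 and 0.1 on the controls. In the brightest genes it was -0.45 on replicate 2. Among the 44 proteasome genes it was -0.17 on replicate 2 and 0.26 on replicate 1, inside the range of the controls, which had -0.27, -0.09 and 0.40. These points share an array and genes are not independent, so the values are descriptions. Their part in the core particle's difference was not tested.

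**Figure D3:**
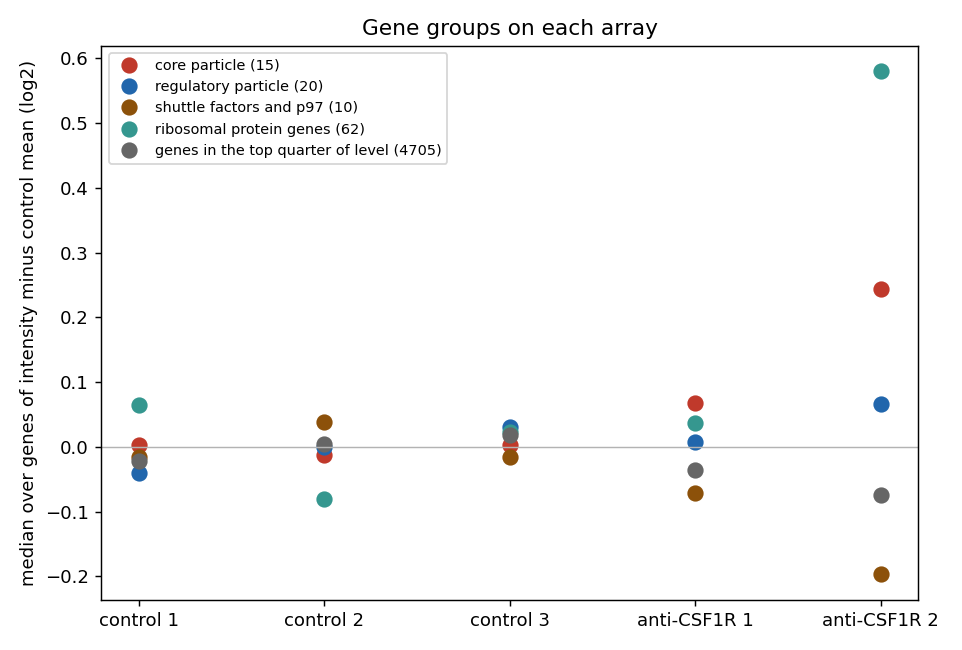
Median over the genes of each group of log2 intensity minus the control mean, on each of the 5 arrays; group sizes are in the key. The controls are part of that mean, so their points are drawn towards 0 by construction. On anti-CSF1R replicate 2 ribosomal protein genes reach 0.58 and the core particle 0.244, while the shuttle factors and p97 lie at -0.197; on anti-CSF1R replicate 1 the core particle is at 0.068.

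The beta ring held the widest core differences. Its catalytic subunits are Psmb5, of chymotrypsin-like activity, Psmb6, of caspase-like activity, and Psmb7, of trypsin-like activity. Psmb5 had log2 intensities of 11.38, 11.30 and 11.29 on the controls and 11.36 and 11.57 on the anti-CSF1R arrays. Replicate 2 was above all controls and replicate 1 was within them, and the difference was 0.14 ± 0.11 (SE; limma adjusted p = 0.489). Psmb6 gave 9.30, 9.21 and 9.14 against 9.29 and 9.62, a difference of 0.24 ± 0.14 (SE; limma adjusted p = 0.373), again with replicate 1 inside the control range. For Psmb7 the values were 9.70, 9.59 and 9.72 against 9.77 and 9.96, and here both anti-CSF1R arrays exceeded every control (0.19 ± 0.12, SE; limma adjusted p = 0.387). The 95% intervals of these 3 subunits ran from -0.14 to 0.42, from -0.10 to 0.57 and from -0.09 to 0.48. Without replicate 2 the differences were 0.0393, 0.0682 and 0.0975.

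Psmb1, a beta subunit without proteolytic activity, had the largest difference of the core particle. Its values were 8.78, 8.62 and 8.72 in controls and 8.82 and 9.22 in anti-CSF1R liver, so the groups were apart (0.31 ± 0.15, SE; limma adjusted p = 0.316). Without anti-CSF1R replicate 2 the difference was 0.108, and without replicate 1 it was 0.515. A second Psmb1 probe set, at lower intensity, gave 0.25 ± 0.15 (SE). The remaining noncatalytic beta subunits, Psmb2, Psmb3 and Psmb4, differed by 0.08, 0.12 and 0.09 with overlapping groups. The controls of Psmb2 were 10.23, 10.35 and 10.31 and its anti-CSF1R values 10.22 and 10.52, the lowest and the highest of the 5. In Psmb4 too, anti-CSF1R replicate 1 was the lowest and replicate 2 the highest.

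Psmb11 and Psma8 are forms that belong to the thymus and the testis. They were dim here, with log2 means of 4.39 and 3.79 in controls, and dim genes were higher as a whole, with medians of 0.184 in the dimmest 4705 genes and 0.116 in the next 4705. Both lay in the latter set, where 33.4% of genes were apart and higher. Psmb11 had 4.39, 4.49 and 4.29 against 4.54 and 4.74, with groups apart (0.25 ± 0.12, SE; 0.147 without replicate 2). Psma8 had 3.76, 3.64 and 3.99 against 3.96 and 4.07, with overlap (0.22 ± 0.14, SE). Without both, all 13 remaining core particle genes were still higher, with a median of 0.121 and 4 with groups apart. On anti-CSF1R replicate 1, however, their median was only 0.039 above the control mean, with the controls between -0.013 and 0.029. There 9 of the 13 lay above the control mean, and on replicate 2 the median was 0.233.

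Alpha subunits form the outer rings and control entry to the chamber. The 7 measured ones differed by 0.07 to 0.22, with a median of 0.121. Psma7 had the smallest p of them, with 8.50, 8.39 and 8.39 in controls and 8.51 and 8.79 in anti-CSF1R liver (0.22 ± 0.13, SE; limma adjusted p = 0.37). Its replicate 1 value lay only just above the highest control, and without replicate 2 the difference was 0.0768. Psma6 was the other alpha gene with groups apart, at 9.54, 9.56 and 9.63 against 9.69 and 9.75 (0.14 ± 0.10, SE). Psma1 had the least evidence of a difference, with 9.73, 10.06 and 9.95 against 9.91 and 10.07 (0.07 ± 0.14, SE). Psma2, Psma3 and Psma5 gave 0.12, 0.11 and 0.09, each with overlap, and 2 further Psma3 probe sets gave 0.09 and 0.14. Psma4 was read only from a probe set it shares with another symbol, AY074887, which was at 0.16 ± 0.10 (SE).

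**Figure D4:**
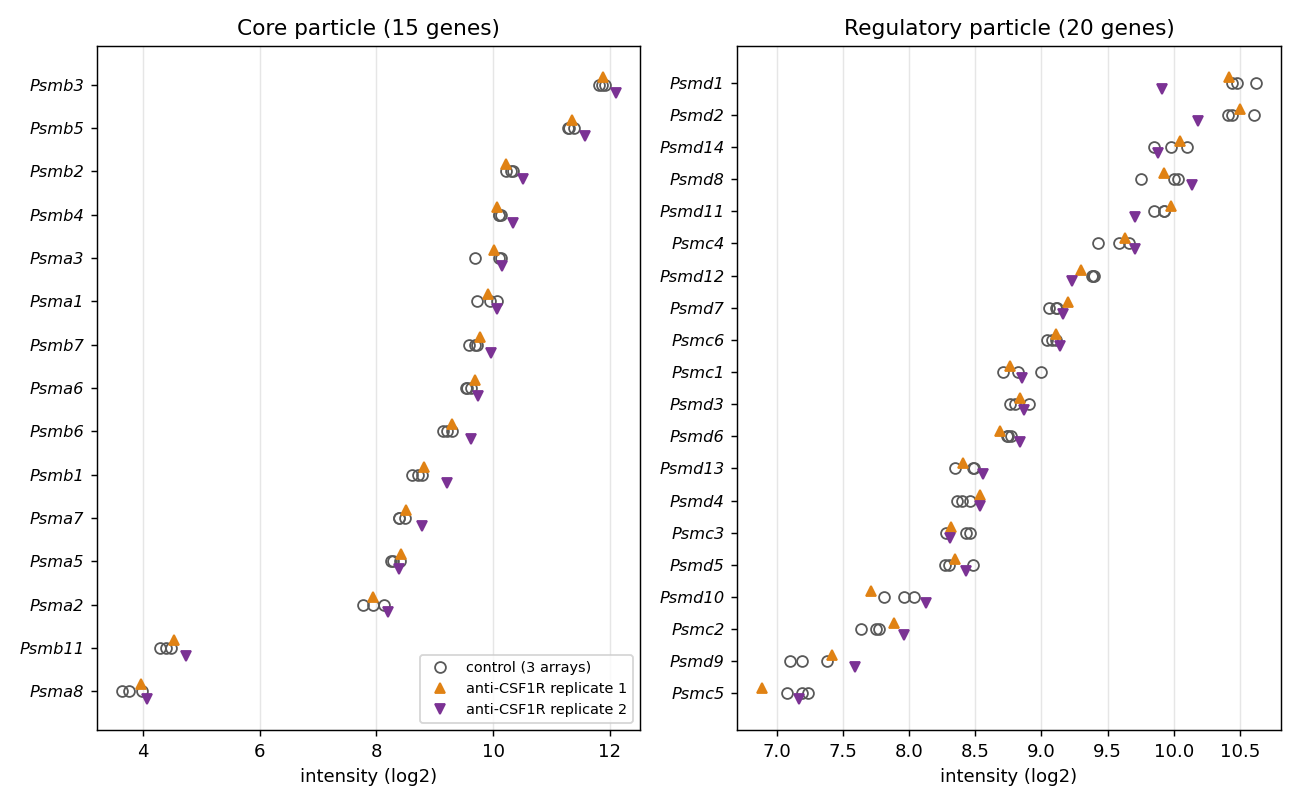
Log2 intensity of each core particle gene (left) and regulatory particle gene (right) on every array, ordered by control mean: open circles, 3 controls; triangles, anti-CSF1R replicate 1 (pointing up) and replicate 2 (pointing down), set slightly apart in height. In the core particle replicate 2 lies right of all controls in every gene but Psma5, while in the regulatory particle it lies on either side; probe sets differ in response, so order along the axis is no order of transcript amounts.

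The ATPases of the base turn ATP hydrolysis into unfolding and opening of the core. Their 6 genes were split evenly, 3 higher and 3 lower, with a median difference of 0.006. Psmc2 had 7.64, 7.77 and 7.75 in controls and 7.89 and 7.96 in anti-CSF1R liver, with groups apart and close replicates (0.21 ± 0.11, SE; limma adjusted p = 0.331). Psmc5 lay the other way, at 7.19, 7.08 and 7.24 against 6.89 and 7.17, where only replicate 1 was below the controls (-0.14 ± 0.13, SE; limma adjusted p = 0.541; -0.00273 without replicate 1). Psmc1 gave 8.71, 9.0 and 8.82 against 8.76 and 8.85, inside the control range (-0.04 ± 0.13, SE), and its second probe set gave 0.09. Psmc6 was apart by a small margin, at 9.04, 9.08 and 9.11 against 9.11 and 9.14 (0.05 ± 0.10, SE), while Psmc3 and Psmc4 differed by -0.07 and 0.11.

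The large scaffold proteins of the base, Psmd1 and Psmd2, had lower mean values in anti-CSF1R liver. Psmd1 had 10.44, 10.62 and 10.48 in controls and 10.42 and 9.91 in anti-CSF1R liver (-0.35 ± 0.17, SE; limma adjusted p = 0.325). Replicate 1 lay barely under the lowest control, and without replicate 2 the difference was -0.0924. Psmd2, which docks shuttle factors, had 10.41, 10.61 and 10.44 against 10.50 and 10.18, with replicate 1 among the controls (-0.15 ± 0.14, SE; 0.0125 without replicate 2). Its second probe set was at -0.14. Psmd4, a ubiquitin receptor, differed in the other direction on both arrays, at 8.36, 8.40 and 8.46 against 8.54 and 8.54 (0.13 ± 0.10, SE; limma adjusted p = 0.467).

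Lid genes stayed close to the controls, between -0.13 and 0.11 with a median of 0.025. Psmd12, a structural subunit, was the lid gene with the smallest p. Its controls were 9.40, 9.39 and 9.38 and its anti-CSF1R values 9.30 and 9.23, so the groups were apart (-0.13 ± 0.10, SE; limma adjusted p = 0.478). Psmd7, the partner of the deubiquitinase, had 9.06, 9.11 and 9.12 against 9.20 and 9.16, apart and higher (0.08 ± 0.10, SE). For the deubiquitinase Psmd14, which cuts the chain from the substrate, the values 9.85, 9.98 and 10.10 enclosed those of anti-CSF1R liver, 10.05 and 9.88 (-0.01 ± 0.13, SE; limma adjusted p = 0.973; 95% interval -0.32 to 0.30). The other 5 lid genes, Psmd3, Psmd6, Psmd8, Psmd11 and Psmd13, lay between -0.06 and 0.11 with overlapping groups.

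Chaperones that assemble the base leave the finished proteasome. Psmd9 had the smallest p of all 44 genes, with 7.38, 7.10 and 7.19 in controls and 7.42 and 7.59 in anti-CSF1R liver (0.29 ± 0.13, SE; limma adjusted p = 0.298). The groups were apart, though replicate 1 was near control replicate 1, and the 95% interval ran from -0.03 to 0.61. Psmd5 gave 8.30, 8.27 and 8.48 against 8.35 and 8.43, inside the control range (0.04 ± 0.12, SE). Psmd10, also called gankyrin, gave 7.81, 8.04 and 7.96 against 7.71 and 8.13, the lowest and the highest of the 5 (-0.02 ± 0.16, SE). Without these 3 the regulatory particle's median was 0.01.

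Alternative caps and an inhibitor also bind the core. Psme1 and Psme2, which form an activator induced by interferon, differed by 0.01 and 0.03. Psme1 had 8.79, 8.88 and 8.79 against 8.74 and 8.92, the values of anti-CSF1R liver lying outside the controls on opposite sides (0.01 ± 0.11, SE; limma adjusted p = 0.977). Psme3, a nuclear activator, had the lowest difference of this group, with 9.81, 9.93 and 9.91 against 9.81 and 9.65 (-0.15 ± 0.11, SE, limma adjusted p = 0.458, and -0.0699 without replicate 2). Psmf1, which inhibits the core in the test tube, had the highest difference, with 8.45, 8.75 and 8.80 against 8.73 and 8.90 (0.15 ± 0.15, SE, and 0.0374 without control replicate 1, whose value was the lowest). Psme4, an activator found in the nucleus, was at 0.03. The probe set that Psme2 shares with Psme2b gave 0.19 ± 0.18 (SE).

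The Psmg genes encode chaperones that build the alpha ring. All 4 were above 0, with a median of 0.101. The median deviation from the control mean nevertheless disagreed between the anti-CSF1R arrays, at -0.121 on replicate 1 and 0.256 on replicate 2. Psmg4 showed this most, with 6.50, 6.65 and 6.74 in controls, 6.51 on replicate 1 and 7.19 on replicate 2 (0.22 ± 0.21, SE; limma adjusted p = 0.561; -0.12 without replicate 2). Psmg2 had 7.64, 7.81 and 7.92 against 7.59 and 8.01, again outside the controls on opposite sides (0.01 ± 0.16, SE). Psmg3 was the exception with close replicates, at 5.07, 5.27 and 5.05 against 5.23 and 5.26, inside the control range (0.12 ± 0.12, SE). Psmg1 was at 0.09.

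**Figure D5:**
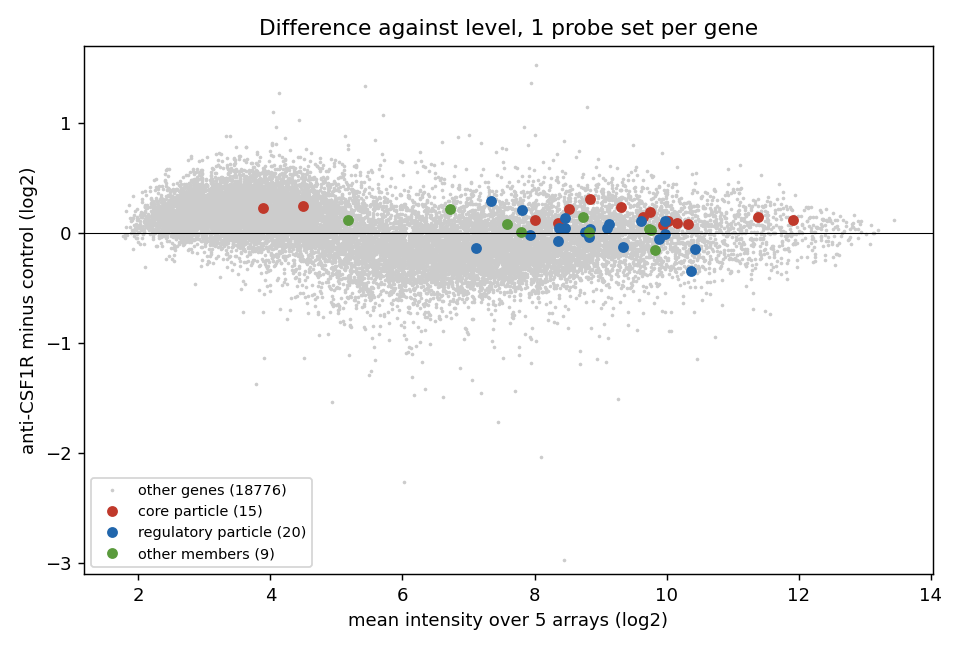
Difference between anti-CSF1R and control liver against mean log2 intensity over 5 arrays, 1 probe set per gene, with 18776 other genes in grey. Proteasome genes (coloured by particle) lie between -0.35 and 0.31, inside the range of the other genes at their level. Dim genes as a whole lie above 0, with a median of 0.184 in the dimmest 4705. In the 4705 genes next below the brightest the median is -0.15.

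The immunoproteasome subunits Psmb8, Psmb9 and Psmb10 replace the catalytic subunits in immune cells and under interferon. Psmb8 had 6.95, 7.20 and 6.89 in controls and 6.64 and 7.13 in anti-CSF1R liver (-0.13 ± 0.18, SE). Psmb9 had 7.29, 7.51 and 7.36 against 7.24 and 7.63 (0.05 ± 0.15, SE), and Psmb10 had 8.18, 8.6 and 8.30 against 8.28 and 8.57 (0.07 ± 0.17, SE). Both anti-CSF1R values of Psmb10 lay inside the control range, while Psmb8 had 1 below it and Psmb9 1 on each side. The 95% intervals ran from -0.57 to 0.48 over the 3 genes. All 3 lay under their control mean on replicate 1 and above it on replicate 2, the array on which the macrophage markers were also closer to the controls; the part of those cells was not tested.

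Genes that work with the proteasome had mostly lower values. In lists of proteasome assembly, control and ubiquitin delivery, 26 genes were analysed. Of these, 4 were higher and 22 lower, with a median difference of -0.12 (-0.188 without anti-CSF1R replicate 1 and -0.026 without replicate 2), where 43.7% of all genes and 58.8% of the brightest 4705 were lower. None passed an adjusted p of 0.05 in limma, and 1 of the 26 had an unadjusted p under 0.05, a smaller share than the 18.3% of all genes and 10.4% of the brightest 4705. That gene was Uba6, one of the enzymes that activate ubiquitin, at 7.29, 7.70 and 7.46 in controls and 7.20 and 6.62 in anti-CSF1R liver (-0.57 ± 0.21, SE; limma adjusted p = 0.244; -0.862 without replicate 1 and -0.287 without replicate 2). Groups were apart and lower for 11 of the 26, where 19.5% of all genes and 26.8% of the brightest 4705 were. Only 19 of the 26 lay among the brightest 4705. Uba6 lay in the next 4705 by level, where the median difference was -0.15. There 40.3% of genes were apart and lower, and 21.9% had an unadjusted p under 0.05 in limma. Groups were apart and higher for 2 of the 26, against 25.1% of all genes and 11.7% of the brightest 4705.

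Shuttle factors and p97 bring ubiquitinated proteins to the proteasome, and all 10 measured genes of this list were lower, from -0.35 to -0.01, with 6 of them apart, against the same 19.5% and 26.8% apart and lower. On replicate 1 the median was -0.071 and 4 of the 10 lay above the control mean; on replicate 2 it was -0.197 and none did. Ubqln2, a shuttle factor, had the smallest p at 7.26, 7.48 and 7.41 against 7.19 and 6.98 (-0.30 ± 0.13, SE; limma adjusted p = 0.28; -0.193 without replicate 2). Quantile normalization gave it a difference of -0.172. Ubqln2 lay in the 4705 genes next below the brightest, where 40.3% were apart and lower. Vcp, the p97 unfoldase, was at -0.35 ± 0.17 (SE), with deviations of -0.08 and -0.61 on the arrays, much as for the base scaffold Psmd1.

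Pomp, which matures the beta ring, had 8.59, 8.81 and 8.76 in controls and 8.81 and 9.23 in anti-CSF1R liver (0.30 ± 0.16, SE; limma adjusted p = 0.341; 0.0896 without replicate 2). Sem1, a small lid subunit, had 7.67, 7.52 and 7.87 against 7.69 and 8.23 (0.28 ± 0.20, SE; 0.00463 without replicate 2). In both genes replicate 1 lay within the controls and replicate 2 above them. Pomp was the only gene of 8 in its list of assembly and associated proteins to be higher, and 4 of the lower 7 had groups apart (19.5% of all genes and 26.8% of the brightest 4705 were apart and lower).

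RNA of Nfe2l1 and Nfe2l2, transcription factors that act on subunit genes, had slightly lower means in anti-CSF1R liver, by less than the SE. Their protein was not measured, and factors that bind the ETS site or CCAAT were not examined. Nfe2l1 had 8.82, 8.64 and 8.70 in controls and 8.82 and 8.38 in anti-CSF1R liver (-0.12 ± 0.16, SE; limma adjusted p = 0.672; 0.102 without replicate 2). Nfe2l2, the regulator of antioxidant genes, had 10.11, 10.33 and 10.15 against 10.24 and 10.03 (-0.06 ± 0.13, SE; limma adjusted p = 0.797). In both, replicate 1 stayed within the controls and replicate 2 lay below them. Maff, a small partner protein of these factors, had the smallest p of the list at 4.47, 4.46 and 4.29 against 4.47 and 4.74 (0.20 ± 0.13, SE), at a dim level where most genes were higher. Of the 6 genes measured in this list, 4 were lower and 2 higher, Maff and Ngly1. Both of the latter had groups apart. Apart and higher were 25.1% of all genes, 11.7% of the brightest 4705, where Ngly1 lay, and 33.4% of the 4705 genes around the level of Maff.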

How the data were processed

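The authors deposited linear intensity values for 35556 probe sets, a column for each array. Per the submitters' processing notes, Affymetrix Expression Console 1.1 was used; its summarisation, background correction and normalization settings were not given in the sources used here. RNA was amplified and biotin-labelled from cDNA, per the labels' protocols. Log2 was taken with no pseudocount or filter. Probe sets were named through the platform annotation; for each of 18820 genes, the single-symbol probe set with the highest mean over 5 arrays was used. Groups (3 control, 2 anti-CSF1R) came from the labels.

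All probe sets were fitted with limma 3.58.1 in R 4.3.3 (lmFit, eBayes, two-sided; degrees of freedom 3 residual, 3.03 prior). Adjusted p-values (Benjamini-Hochberg) span every probe set, with a threshold of 0.05. The fit was run on simulated data with independent noise and changes larger than that of any member here. That run therefore says nothing on differences of the size reported. Intervals are at 95% (same degrees of freedom). Gene groups are described by counts and medians. Members and lists were chosen with earlier results of these data known. Genes given on every array were the catalytic and immunoproteasome subunits, the 2 of smallest and the 1 of largest p in each member list, the 1 of smallest p in each other list, and Sem1, Nfe2l1, Nfe2l2 and Pomp (Adrm1 was not analysed here); Psma6, Psmc6 and Vcp were added after their values were seen. Promoters came from RefSeq (GRCm38.p6). Alternatives were other normalizations, filters, probe sets, variance models, array weights, pseudocounts, the replicate number as a block and leaving out arrays. Figures used matplotlib 3.10.9 in Python 3.11.15.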

Additional observations from a re-analysis of the deposited data

How the results depend on the processing

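No member passed an adjusted p of 0.05 in limma or 0.1 under any alternative run; the smallest adjusted p of a member lay between 0.148 (without anti-CSF1R replicate 1) and 0.476 (replicate block). All 15 core particle genes were higher in every alternative that kept them and all arrays. The replicate number as a block gave a core median of 0.171 and a regulatory median of 0.057; it leaves control replicate 3 without a partner, and same-numbered arrays deviated together only weakly (correlations of 0.0268 and 0.0325). Members at an unadjusted p under 0.05 numbered 2 with quantile normalization, 3 with cyclic loess (added after seeing the data), 1 with 1 probe set per gene and 2 with a pseudocount of 16. Shares over all genes are not given here under the alternatives, so counts of members under them have no background to be read against. With arrays centred on medians 8 core genes were apart and higher, and the regulatory median was 0.063 (0.089 with cyclic loess). The cause was not tested.

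When 1 array was left out, the core median ran from 0.068 to 0.244, core genes apart and higher from 6 to 14 and apart and lower from 0 to 2, and core genes higher by any amount from 11 to 15. The regulatory median ran from 0.008 to 0.066, its genes apart and higher from 5 to 10 and apart and lower from 2 to 5, members at an unadjusted p under 0.05 from 0 to 5, and the median of the other pathway genes from -0.188 to -0.026. Counts of genes apart or at an unadjusted p under 0.05 are not given for these runs, since they have no share over all genes beside them. Groups are also apart more easily with fewer arrays. With 1 anti-CSF1R array left, that array is assumed to vary like the controls.

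Among the genes given on every array, some signs turned. Quantile normalization gave Psmb8 0.0148 and Psmd10 0.0719; centring gave Psmd10 0.0193 and Psmd14 0.0288; cyclic loess gave Psmb8 0.00651, Psmc1 0.0193 and Psmd10 0.0851; the mean of a gene's probe sets gave Psmc1 0.0273; array weights gave Psmg2 -0.0119; the replicate block gave Psmd14 0.0533 and Psme1 -0.00903. Without 1 array the ranges were -0.342 to 0.102 (Nfe2l1), -0.162 to 0.0415 (Nfe2l2), -0.018 to 0.152 (Psma1), -0.0787 to 0.215 (Psmb10), -0.0724 to 0.229 (Psmb2), -0.372 to 0.112 (Psmb8), -0.144 to 0.245 (Psmb9), -0.103 to 0.0405 (Psmc1), -0.228 to 0.191 (Psmd10), -0.0951 to 0.0772 (Psmd14), -0.306 to 0.0125 (Psmd2), -0.0796 to 0.093 (Psme1), -0.197 to 0.22 (Psmg2) and -0.12 to 0.563 (Psmg4).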
